A study of Mus musculus with 12 samples.

Results

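The p53 pathway was described through 39 genes, comprising the tumour suppressor p53, its relative p73, their inhibitors and genes known to be switched on by p53. They were matched by gene symbol to the probe sets of an Affymetrix Mouse Gene 1.0 ST array, a chip whose short probes are summarised into 1 value per transcript cluster. Of these, 38 had 1 probe set that named them alone, among 17103 genes measured. The remaining gene, Steap3, shared its probe set with Steap1 and was not analysed. Pidd1 and Dram1 were found under older symbols (Lrdd and 1200002N14Rik).

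The arrays were 12 in 4 groups of 3: 2 sets of mouse cells labelled induced neural stem cells (iNSC1 and iNSC2), neural stem cells (NSC) labelled wild type, and embryonic fibroblasts (MEF, replicates 1, 3 and 5) also labelled wild type. The iNSC and NSC cultures were given the growth factors EGF and FGF-2 (20 ng/ml of each) plus 2 µg/ml of heparin, while MEF were kept in DMEM with 10% serum, so medium and cell type cannot be told apart in any comparison with MEF. The labels give no age, sex, strain, passage or genotype beyond wild type, do not name the cell the induced cells were made from or the factors used, and do not say how iNSC1 and iNSC2 differ. Whether the arrays of a set came from separate cultures is not stated either, so each p measures only the spread between these arrays.

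p53 is a transcription factor that is kept scarce by the ubiquitin ligase Mdm2 and held inactive by the related Mdm4. DNA damage, oncogene activity or other stress frees it, and it then binds paired copies of a ten-letter element near its targets, among them genes of growth arrest, apoptosis, DNA repair and metabolism, and Mdm2 itself. The activity of p53 is set largely by the stability and modification of the protein, which arrays of RNA do not measure, and loss of the pathway is known to make the reprogramming of fibroblasts more efficient and to accompany immortalisation in culture.

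All values are log2 readings after the authors' RMA processing, and the median reading of an array was 4.31 to 4.44. Detection calls were not used here, and readings near the bottom of the scale can be background, and levels are compared within a gene only. A gene was called when its Benjamini-Hochberg adjusted p in limma, over all 17103 genes, was under 0.05 and the groups differed at least 2-fold. The labels NSC and iNSC were at most partly matched by their markers. Of 14 neural stem cell markers, 3 were higher in NSC than in MEF (Sox1 1.02 ± 0.087, Pax6 1.16 ± 0.14 and Olig2 1.11 ± 0.13), 2 were lower (Sox9 -1.39 ± 0.12 and Cdh2 -2.32 ± 0.13) and 9 were not called. Sox2 read 4.58 ± 0.12 in NSC and 4.50 ± 0.046 in MEF, Nes read 4.79 ± 0.30 in NSC and 5.15 ± 0.29 in MEF, and the pluripotency factor Pou5f1 read 12.89 ± 0.02 in NSC and 3.54 ± 0.26 in MEF (SD, n = 3 each). Of the same 14 neural stem cell markers, 0 were called higher in iNSC than in MEF and 11 were not called. The 3 called lower were Sox9 (-1.05), Notch1 (-1.11) and Cdh2 (-3.505). Without the 2-fold minimum, 5 were higher and 3 lower. In the iNSC arrays Sox2 ranged over 4.31 to 4.62 and Pou5f1 over 12.96 to 13.03. Of 9 pluripotency genes, 4 were higher in NSC than in MEF (Pou5f1, Nr0b1, Sall4 and Fgf4) and 5 were not called. Between iNSC and NSC, Gdf3 (3.93 ± 0.11) and Utf1 (3.19 ± 0.13) were higher in iNSC and Nr0b1 (-4.44 ± 0.12) was lower. The Utf1 value averages unlike sets, with means of 9.25 in iNSC1 and 6.87 in iNSC2. Over the 14 neural stem cell markers, the mean reading per array was 4.82 to 4.85 in iNSC1, 4.89 to 4.91 in iNSC2, 5.00 to 5.07 in NSC and 4.95 to 4.99 in MEF. The groups are called by their labels here. The MEF label had its markers, with Col1a1 at 12.25 ± 0.025 (SD, n = 3).

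Many genes of the p53 pathway, among them Ccng1, Bax, Trp53inp1 and Sesn2, were lower in the iNSC arrays than in NSC and in MEF, and 0 of the 38 were called higher. Against MEF, 17 of the 38 genes were lower in iNSC and 0 were higher. Over all genes, 10.9% were called lower and 8.21% higher in that comparison. Against NSC, 16 of 38 were lower in iNSC and 0 were higher, where 3.65% of all genes were lower and 2.91% higher. Without the 2-fold minimum, limma's adjusted p also put 5 members higher than MEF, where 29.3% of all genes were, and 3 higher than NSC, where 16.4% were. The median difference of the 38 genes was -0.85 against MEF and -0.77 against NSC, beside 0.061 and 0.0080 for all genes. In NSC minus MEF, 7 genes were lower and 2 higher (9.96% and 8.72% of all genes), and the median was 0.090 for the members beside 0.045 for all genes. These comparisons share arrays, so each is given with its own values. The members were chosen with earlier results of these data known, so the counts beside all genes are description only.

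Of the 38 genes, 27 had their lowest group mean in iNSC, against 26.4% of all genes. Every one of the 6 iNSC arrays lay below every NSC and MEF array for 20 of the 38 genes, as it did for 7.86% of all genes. The 12 genes called lower against both NSC and MEF were Ccng1, Plk2, Zmat3, Bax, Eda2r, Ei24, Phlda3, Trp53inp1, Sesn2, Ddit4l, Abhd4 and Rap2b, a pattern that 1.46% of all genes met. Both calls of such a gene use the same iNSC arrays. In these bulk samples, fewer cells that express a gene and less RNA per cell cannot be told apart.

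**Figure D1:**
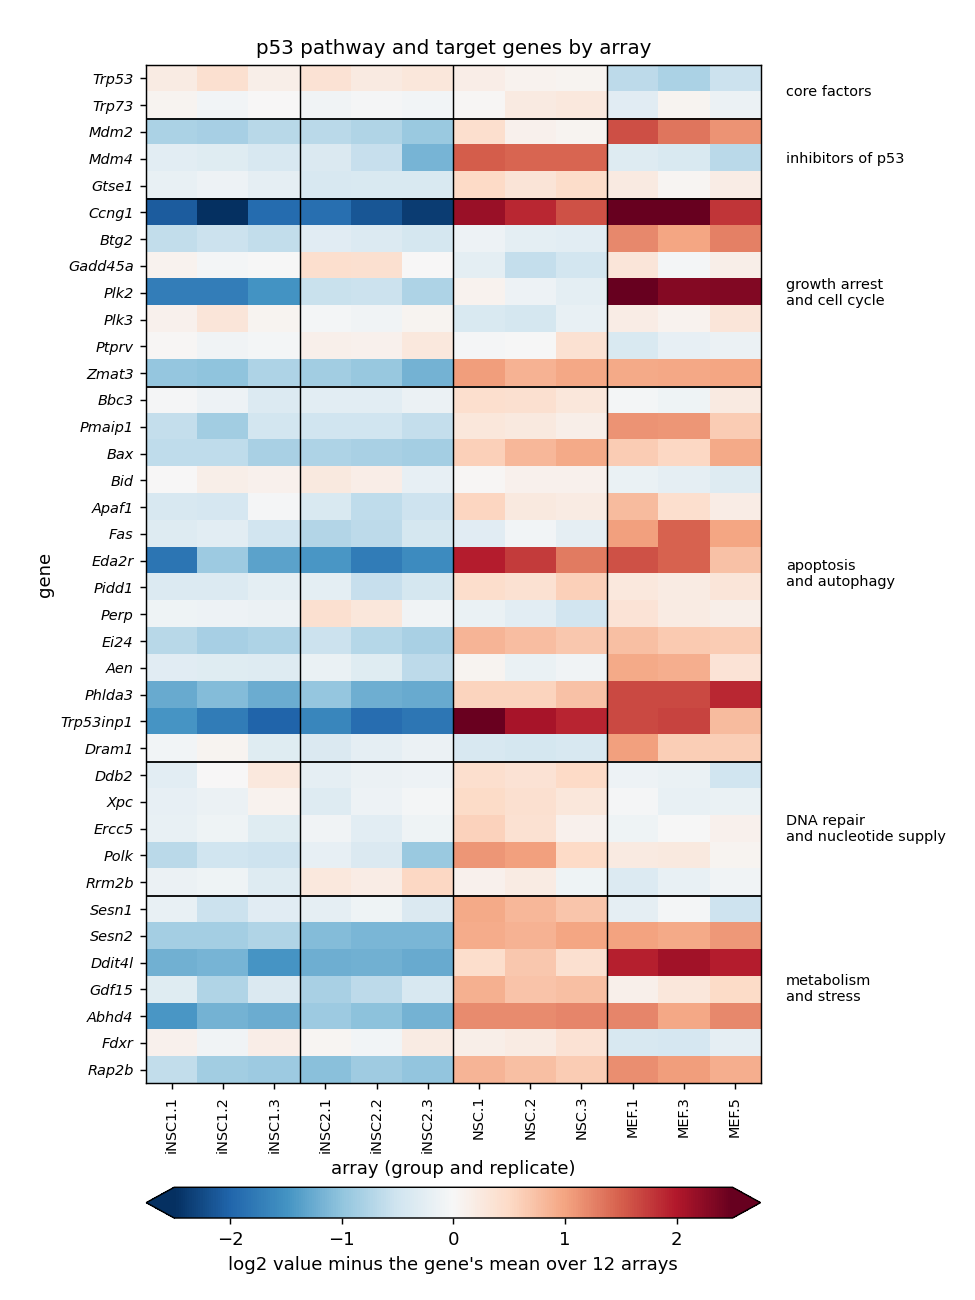
Log2 value of each p53 pathway gene minus its mean over the 12 arrays (colour, capped at the ends of the scale), with genes in rows grouped by role and arrays in columns. Rows such as Ccng1, Zmat3, Eda2r, Ei24, Trp53inp1, Sesn2 and Abhd4 are blue in all 6 iNSC arrays and red in the 3 NSC and 3 MEF arrays.

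**Figure D2:**
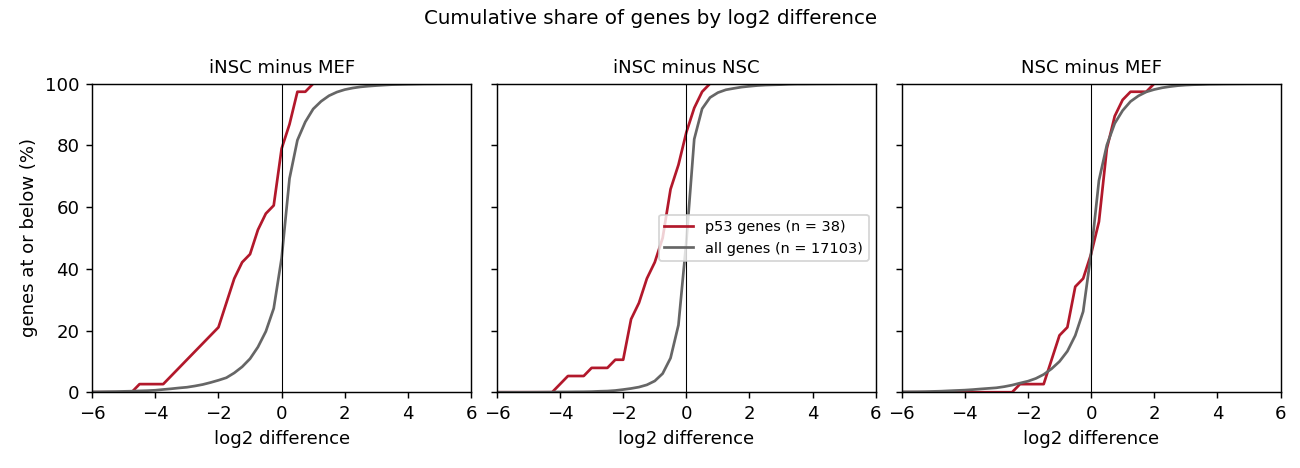
Percent of genes whose log2 difference lies at or below the value on the horizontal axis, for the 38 p53 pathway genes (red) and all 17103 genes (grey) in 3 comparisons. The red curve lies left of the grey one in iNSC minus MEF and iNSC minus NSC, with medians of -0.85 and -0.77; in NSC minus MEF it lies above the grey curve at -0.5 (34.2% against 18.4%) and below it at 0.25 (55.3% against 68.6%).

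The gene for p53 itself was not lower in the iNSC arrays. Trp53 read 9.55, 9.76 and 9.51 in iNSC1, 9.71, 9.58 and 9.63 in iNSC2, against 9.52, 9.45 and 9.42 in NSC and 8.69, 8.57 and 8.82 in MEF. The iNSC and NSC readings overlap in part, and both lie above every MEF array. The difference was 0.93 ± 0.071 (SE) from MEF, with an adjusted p = 2.49e-09 that passes without reaching 2-fold, and 0.16 (95% interval 0.01 to 0.31) from NSC. The authors' table puts its probe set on chromosome 11 from 69393483 to 69405375, plus strand. The sources used here do not name the genome build of that table. Trp73, whose product p73 can bind the same sites, had low readings of 4.38 to 4.53 in iNSC, 4.49 to 4.74 in NSC and 4.19 to 4.54 in MEF, and was not called in any comparison.

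Of the inhibitors, Mdm2 and Mdm4 had different patterns. Mdm2, both inhibitor and target of p53, read 5.63, 5.60 and 5.74 in iNSC1, 5.76, 5.68 and 5.49 in iNSC2, against 6.85, 6.53 and 6.49 in NSC and 8.04, 7.76 and 7.55 in MEF. The 3 levels do not overlap: iNSC was lowest, NSC between and MEF highest. Mdm2 was 4.39-fold lower in iNSC than in MEF (-2.14 ± 0.11, adjusted p = 1.34e-11) and 2.24-fold lower in NSC than in MEF (-1.16 ± 0.13). From NSC the iNSC arrays differed by -0.97 ± 0.11, just short of 2-fold; the value passed 2-fold without iNSC2 replicate 1 (-1.001) and without NSC replicate 2 (-1.02) or 3 (-1.04). Mdm4, the relative of Mdm2 that masks the activating part of p53, read 4.75, 4.69 and 4.60 in iNSC1 and 4.64, 4.43 and 3.85 in iNSC2, against 6.52, 6.46 and 6.46 in NSC and 4.67, 4.62 and 4.32 in MEF. All NSC arrays lie above all others, and iNSC and MEF overlap. It was 3.97-fold lower in iNSC than in NSC (-1.99 ± 0.14) and 3.85-fold higher in NSC than in MEF (1.95 ± 0.16), and differed by -0.04 (95% interval -0.34 to 0.25) between iNSC and MEF. Gtse1, a microtubule protein of G2 phase that promotes export of p53 from the nucleus, differed by -0.44 ± 0.07 from MEF and -0.71 ± 0.07 from NSC, below 2-fold, with no overlap of iNSC with the other arrays.

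**Figure D3:**
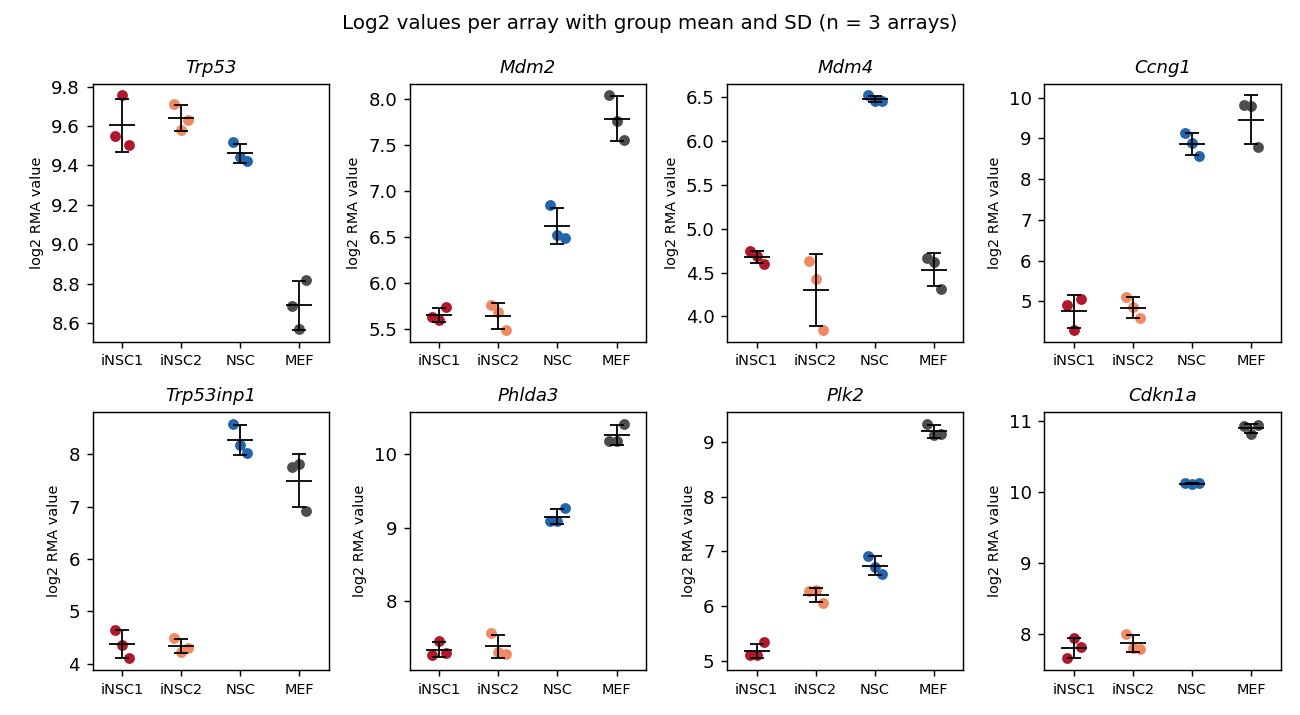
Log2 value of 8 genes on each array (points), with the mean and SD of each group of 3 arrays (black bars); vertical axes differ between panels and do not start at 0. Ccng1, Trp53inp1, Phlda3 and Cdkn1a read low in both iNSC sets and high in NSC and MEF, Mdm4 reads high in NSC, Plk2 differs between iNSC1 and iNSC2, and Trp53 is lowest in MEF.

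The stretch before the transcription start was read for 30 of the 38 genes from RefSeq promoter windows of the GRCm38.p6 build, each with 250 bases before and 50 after a start, some genes having several starts. The ten-letter p53 consensus element, which reads the same on both strands, was present without mismatch in the windows of 13 of these 30 genes (43.3%), against 1078 of 12541 measured genes with a window (8.6%). It was found in 8 of the 14 genes with a window that were lower in iNSC than in MEF and in 5 of the 16 that were not called. A pair of adjacent elements, with 2 mismatches allowed and both central cores intact, was found in 1 member, Gtse1, beside 0.152% of measured genes. A match describes letters only, and sites known elsewhere in these genes, such as in first introns, lie outside the windows. The 250 bases before the start are shown for the 6 genes lower in iNSC than in MEF with the element in that stretch, 5′ to 3′ in the direction of transcription, with the element in capitals.
Ccng1 (chr11:40755287-40755536, minus strand): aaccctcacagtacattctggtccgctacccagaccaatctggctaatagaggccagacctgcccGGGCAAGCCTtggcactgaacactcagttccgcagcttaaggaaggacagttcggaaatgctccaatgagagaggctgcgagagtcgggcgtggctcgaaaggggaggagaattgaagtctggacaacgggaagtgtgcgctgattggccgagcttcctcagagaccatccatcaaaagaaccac
Mdm2 (chr10:117710759-117711008, minus strand): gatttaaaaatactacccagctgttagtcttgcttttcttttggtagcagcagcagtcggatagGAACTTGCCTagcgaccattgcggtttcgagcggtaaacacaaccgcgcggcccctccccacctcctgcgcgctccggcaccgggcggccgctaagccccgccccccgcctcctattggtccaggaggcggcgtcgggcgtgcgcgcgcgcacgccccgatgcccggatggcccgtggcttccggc
Bax (chr7:45466899-45467148, minus strand): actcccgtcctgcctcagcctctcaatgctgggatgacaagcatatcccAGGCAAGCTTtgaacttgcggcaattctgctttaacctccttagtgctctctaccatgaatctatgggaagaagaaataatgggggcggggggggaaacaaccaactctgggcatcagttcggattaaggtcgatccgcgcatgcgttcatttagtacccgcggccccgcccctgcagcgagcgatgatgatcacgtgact
Ei24 (chr9:36797335-36797584, minus strand): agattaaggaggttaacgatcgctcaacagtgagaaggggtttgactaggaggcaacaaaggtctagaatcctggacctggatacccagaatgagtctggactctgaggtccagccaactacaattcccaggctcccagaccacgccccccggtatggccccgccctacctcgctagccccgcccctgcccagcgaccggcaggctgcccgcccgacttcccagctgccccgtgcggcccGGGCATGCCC
Ddit4l (chr3:137623422-137623671, plus strand): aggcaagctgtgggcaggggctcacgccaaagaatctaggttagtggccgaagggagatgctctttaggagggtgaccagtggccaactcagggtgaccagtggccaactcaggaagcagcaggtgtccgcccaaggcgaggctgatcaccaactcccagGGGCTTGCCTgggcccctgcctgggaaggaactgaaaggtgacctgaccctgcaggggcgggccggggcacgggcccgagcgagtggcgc
Aen (chr7:78895808-78896057, plus strand): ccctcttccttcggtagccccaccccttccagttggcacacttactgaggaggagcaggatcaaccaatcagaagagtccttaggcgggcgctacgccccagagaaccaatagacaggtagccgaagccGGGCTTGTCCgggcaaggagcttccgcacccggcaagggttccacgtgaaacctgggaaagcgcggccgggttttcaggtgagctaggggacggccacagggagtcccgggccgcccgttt
The element begins 185 bases before the start in Ccng1, 186 in Mdm2, 201 in Bax, 10 in Ei24, 90 in Ddit4l and 121 in Aen. Trp53 (75 bases before), Gadd45a (40 before), Polk (231 before) and Sesn1 (173 before) carry it too and were not called in iNSC minus MEF.

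Among the 7 genes of growth arrest and cell cycle control, 4 were lower in iNSC than in MEF (Ccng1, Btg2, Plk2 and Zmat3). Against NSC, 3 were lower (Ccng1, Plk2 and Zmat3). So few genes cannot be set against the shares of all genes called lower (10.9% against MEF, 3.65% against NSC). Ccng1, which encodes cyclin G1, a partner of a phosphatase that acts on Mdm2, had the largest fall of the 38 genes in both comparisons. It read 4.90, 4.30 and 5.06 in iNSC1, 5.09, 4.85 and 4.60 in iNSC2, against 9.13, 8.87 and 8.57 in NSC and 9.81, 9.80 and 8.78 in MEF. The iNSC arrays lie far below all others, whereas NSC and MEF overlap, MEF replicate 5 reading lower than the other MEF arrays. Ccng1 was 25.3-fold lower in iNSC than in MEF (-4.66 ± 0.21 SE, adjusted p = 1.65e-12) and 16.7-fold lower than in NSC (-4.06 ± 0.21, adjusted p = 4.04e-11). Its probe set lies on chromosome 11 from 40562054 to 40568788, minus strand, per the authors' table. Zmat3, a zinc-finger protein that binds RNA, read 5.74, 5.71 and 5.93 in iNSC1 and 5.84, 5.76 and 5.53 in iNSC2, against 7.75, 7.58 and 7.68 in NSC and 7.65, 7.67 and 7.69 in MEF. It was 3.78-fold lower than in MEF and 3.77-fold lower than in NSC, and NSC and MEF differed by -0.0027 (95% interval -0.22 to 0.21).

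Btg2 and Plk2 were lower than in MEF in the NSC arrays as well. Btg2, an inhibitor of proliferation, read 6.69, 6.75 and 6.68 in iNSC1, 7.02, 6.96 and 6.86 in iNSC2, against 7.17, 7.06 and 7.03 in NSC and 8.51, 8.29 and 8.55 in MEF. It was lower than in MEF in iNSC (-1.62 ± 0.078) and in NSC (-1.36 ± 0.09), and iNSC differed from NSC by only -0.26 ± 0.078. Plk2, a polo-like kinase of centriole duplication and stress, read 5.10, 5.11 and 5.34 in iNSC1, 6.27, 6.29 and 6.06 in iNSC2, against 6.92, 6.71 and 6.59 in NSC and 9.34, 9.13 and 9.14 in MEF. Its 4 groups do not overlap, and it was 11.4-fold lower in iNSC than in MEF (-3.51 ± 0.096) and 5.51-fold lower in NSC than in MEF (-2.46 ± 0.11). The call of Plk2 against NSC (-1.05 ± 0.096) ended without NSC replicate 1 (-0.96) and with arrays centred on the median (-0.99). It rests on iNSC1 (mean 5.18, beside 6.74 in NSC), since iNSC2 on its own (mean 6.21) was not called against NSC. The other 3 genes were not called in any comparison. Gadd45a, a stress sensor that binds PCNA and cyclin-dependent kinases, differed by 0.0092 (95% interval -0.21 to 0.23) from MEF and by 0.57 ± 0.11 from NSC, the largest positive difference from NSC among the 38 genes. Plk3, another polo-like kinase, differed by 0.40 ± 0.09 from NSC, and Ptprv, a receptor-type tyrosine phosphatase, by 0.31 ± 0.11 from MEF.

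Of 14 genes of apoptosis and autophagy, 8 were lower in iNSC than in MEF and 5 lower than in NSC, and 0 were higher in either. Over all genes, 10.9% were lower and 8.21% higher in iNSC than in MEF. Against NSC, 3.65% of all genes were lower and 2.91% higher. Trp53inp1, a stress protein that works with p53 in the nucleus and in autophagy in the cytoplasm, read 4.65, 4.36 and 4.12 in iNSC1, 4.49, 4.22 and 4.31 in iNSC2, against 8.59, 8.18 and 8.03 in NSC and 7.77, 7.81 and 6.92 in MEF. All iNSC arrays lie below all others, and NSC lies above MEF. It was 15-fold lower in iNSC than in NSC (-3.91 ± 0.18, adjusted p = 6.62e-12) and 8.82-fold lower than in MEF (-3.14 ± 0.18). Its iNSC readings lie at levels that can be background, so the size of these folds is uncertain. Eda2r, the receptor of the ligand ectodysplasin A2, read 2.37, 3.28 and 2.85 in iNSC1 and 2.74, 2.44 and 2.61 in iNSC2, against 6.14, 5.93 and 5.49 in NSC and 5.78, 5.67 and 4.92 in MEF. The iNSC readings are near the bottom of the scale, and the differences were -3.14 ± 0.20 from NSC and -2.74 ± 0.20 from MEF. Phlda3, which blocks the kinase Akt at the membrane, read 7.27, 7.46 and 7.29 in iNSC1, 7.57, 7.31 and 7.28 in iNSC2, against 9.09, 9.09 and 9.27 in NSC and 10.18, 10.18 and 10.42 in MEF, so that the 3 levels do not overlap. Its falls in iNSC were 7.45-fold against MEF and 3.45-fold against NSC.

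The effectors of mitochondrial apoptosis divided. Bax, which perforates the outer mitochondrial membrane, read 7.06, 7.08 and 6.90 in iNSC1 and 6.93, 6.89 and 6.86 in iNSC2, against 8.30, 8.54 and 8.65 in NSC and 8.34, 8.22 and 8.65 in MEF. It was lower in iNSC, with differences of -1.55 ± 0.096 from NSC and -1.45 ± 0.096 from MEF, and NSC and MEF overlap. Ei24, a protein of the endoplasmic reticulum, was also lower in iNSC, with differences of -1.50 ± 0.073 from NSC and -1.41 ± 0.073 from MEF and readings of 7.66 to 7.96 in iNSC, 9.17 to 9.35 in NSC and 9.13 to 9.25 in MEF. Pmaip1 (Noxa), a small activator of the same step, was 2.9-fold lower in iNSC than in MEF (-1.54 ± 0.12) and differed by -0.81 ± 0.12 from NSC, short of 2-fold. Bbc3 (Puma), its close functional relative, was not called: 5.64 to 5.95 in iNSC, 6.26 to 6.39 in NSC and 5.88 to 6.20 in MEF. Bid, which links death receptors to mitochondria, differed by 0.32 ± 0.095 from MEF and 0.0005 (95% interval -0.20 to 0.20) from NSC. Apaf1, the scaffold of the caspase-activating apoptosome, differed by -0.86 ± 0.13 from MEF, passing 2-fold without MEF replicate 5 (-1.004), and by -0.72 ± 0.13 from NSC.

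The remaining apoptosis and autophagy genes were mostly lower against MEF alone or not called. Fas, the death receptor, had low readings of 2.21 to 2.69 in iNSC and 2.67 to 2.87 in NSC, against 3.94 to 4.41 in MEF. It was lower in iNSC (-1.65 ± 0.12) and in NSC (-1.35 ± 0.14) than in MEF. Aen, a nuclease of apoptosis, was lower in iNSC than in MEF (-1.07 ± 0.13), a call that ended without MEF replicate 1 (-0.96) or 3 (-0.99). Dram1, a lysosomal protein of autophagy, was lower in NSC than in MEF (-1.17 ± 0.13) and differed by -0.93 ± 0.12 between iNSC and MEF. Pidd1, scaffold of the PIDDosome that activates caspase-2, differed by -0.84 ± 0.09 from NSC and -0.62 ± 0.09 from MEF, short of 2-fold, with no overlap of iNSC and other arrays. Perp, a membrane protein of cell junctions, differed by 0.34 ± 0.099 from NSC and -0.19 (95% interval -0.40 to 0.02) from MEF.

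**Figure D4:**
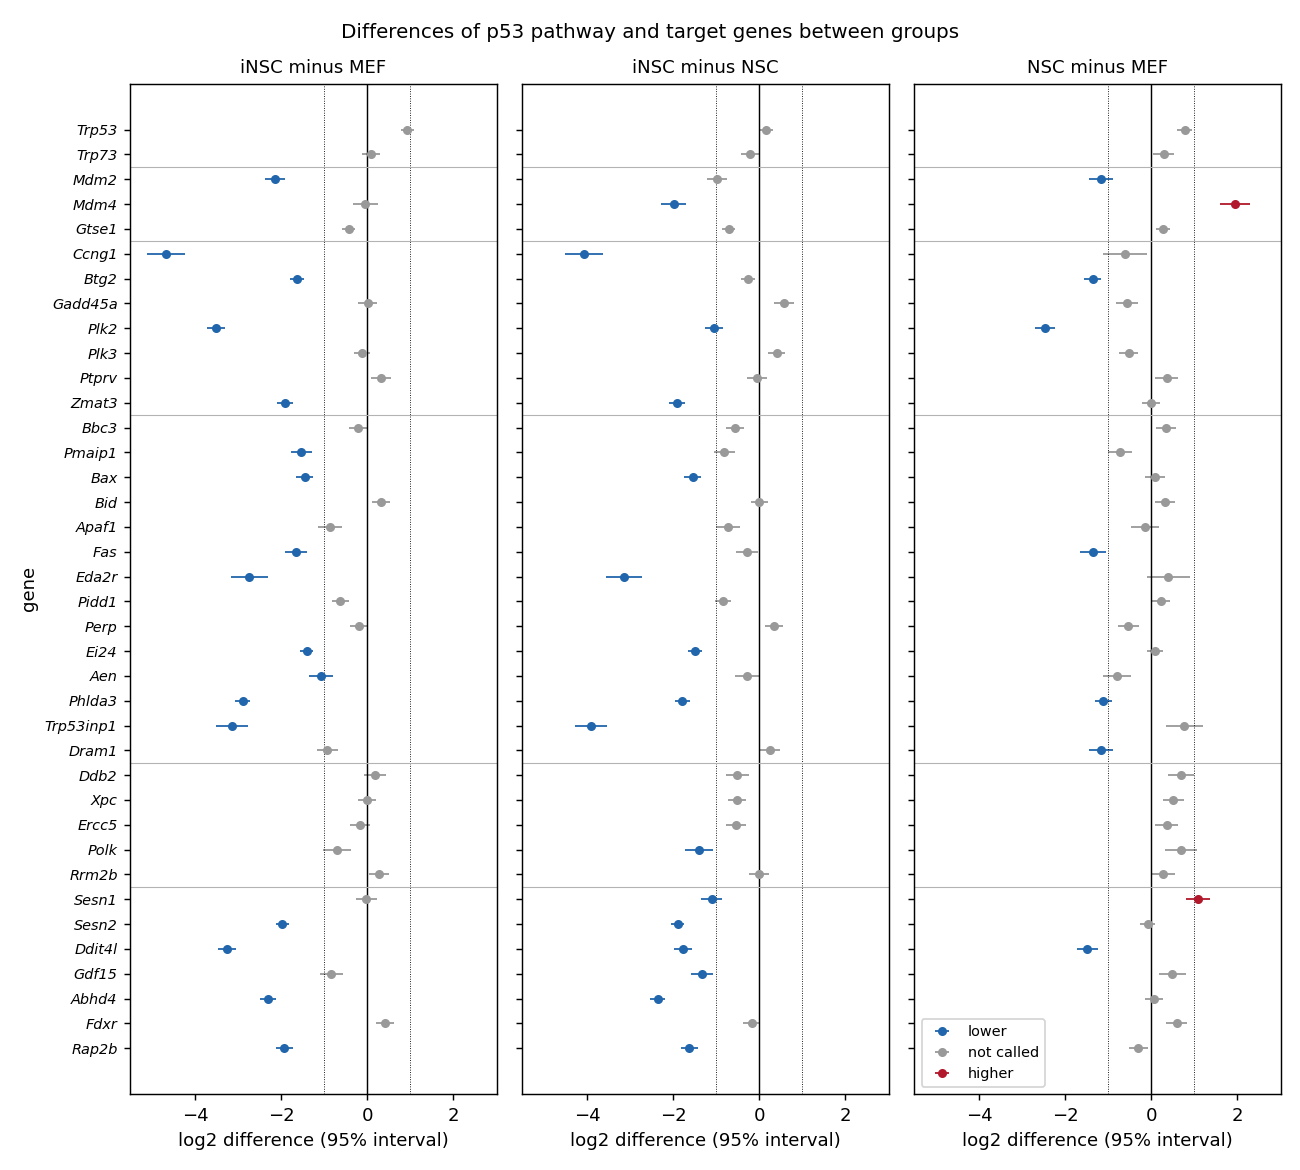
Log2 difference of each p53 pathway gene in 3 comparisons (points) with its 95% confidence interval from limma (bars), coloured by call; dotted lines mark a 2-fold difference. Against MEF 17 genes lie lower in iNSC, against NSC 16, and in NSC minus MEF 7 are lower and 2, Mdm4 and Sesn1, higher.

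Of the 5 DNA repair genes measured, 0 were called between iNSC and MEF in limma, though 1 on either side passed without the 2-fold minimum, and 1 was lower in iNSC than in NSC. So few genes cannot be set against the shares of all genes called (10.9% lower and 8.21% higher than MEF, 3.65% lower than NSC). The gene lower than in NSC was Polk, a polymerase that copies past damaged bases, with 3.03, 3.20 and 3.17 in iNSC1, 3.49, 3.34 and 2.78 in iNSC2, against 4.79, 4.73 and 4.19 in NSC and 3.92, 3.94 and 3.76 in MEF. These are low readings that do not overlap between iNSC and the others, and the difference from NSC was -1.40 ± 0.15. Ddb2 and Xpc, which recognise damage in nucleotide excision repair, differed by -0.51 ± 0.12 and -0.51 ± 0.10 from NSC and by 0.18 (95% interval -0.07 to 0.44) and -0.00083 (95% interval -0.22 to 0.21) from MEF. Ercc5, the nuclease of that pathway, differed by -0.53 ± 0.11 from NSC. Rrm2b, a ribonucleotide reductase subunit that supplies nucleotides for repair, differed by -0.00083 (95% interval -0.24 to 0.24) from NSC. That value averages iNSC1 (mean 3.91) below and iNSC2 (mean 4.43) above the NSC mean of 4.17, and the 2 sets do not overlap.

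Metabolic and stress genes were lower in iNSC in 4 of 7 against MEF and in 6 of 7 against NSC. Over all genes, 10.9% were lower than MEF and 3.65% lower than NSC, shares that 7 genes are too few to be set against. Sesn2, a sestrin that restrains the growth kinase mTORC1, read 6.63, 6.64 and 6.73 in iNSC1 and 6.39, 6.34 and 6.33 in iNSC2, against 8.41, 8.34 and 8.46 in NSC and 8.48, 8.42 and 8.56 in MEF. It was 3.93-fold lower than in MEF and 3.71-fold lower than in NSC, while NSC and MEF overlap in part. Its relative Sesn1 behaved otherwise: it read 4.34 to 4.77 in iNSC, 5.58 to 5.82 in NSC and 4.36 to 4.82 in MEF, so NSC stood above both other groups. Sesn1 was lower in iNSC than in NSC (-1.10 ± 0.12) and higher in NSC than in MEF (1.09 ± 0.14), and that second call ended without MEF replicate 5 (0.96) and under a block for replicate numbers (0.97). Ddit4l, another inhibitor of mTORC1, read 4.20, 4.25 and 3.92 in iNSC1, 4.18, 4.21 and 4.15 in iNSC2, against 5.86, 6.08 and 5.81 in NSC and 7.34, 7.51 and 7.38 in MEF. The order iNSC, NSC, MEF held without overlap, with -3.26 ± 0.1 against MEF and -1.77 ± 0.1 against NSC.

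Abhd4, a hydrolase of phospholipids, read 6.51 to 7.07 in iNSC, against 9.15 to 9.18 in NSC and 8.94 to 9.19 in MEF. It was 5.13-fold lower than in NSC and 4.93-fold lower than in MEF, and the NSC and MEF arrays overlap. Rap2b, a Ras-like GTPase, was lower in iNSC as well, with differences of -1.63 ± 0.091 from NSC and -1.92 ± 0.091 from MEF. Gdf15, a secreted stress cytokine, was lower than in NSC (-1.33 ± 0.13) and differed by -0.84 ± 0.13 from MEF. Fdxr, a mitochondrial reductase of the electron chain for steroid and iron-sulphur synthesis, differed by 0.41 ± 0.097 from MEF and -0.18 ± 0.097 from NSC and was not called.

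With the 2-fold minimum, 7 genes of the pathway were lower and 2 higher in NSC than in MEF (9.96% and 8.72% of all genes). Without it, 14 were lower and 15 higher, beside 4091 and 4780 of all 17103 genes. The 7 that were lower in NSC were Mdm2, Btg2, Plk2, Fas, Phlda3, Dram1 and Ddit4l, with differences between -1.11 ± 0.097 (Phlda3) and -2.46 ± 0.11 (Plk2), and the 2 higher were Mdm4 and Sesn1. For Ccng1 the NSC minus MEF difference was -0.60 (95% interval -1.11 to -0.09), for Trp53inp1 0.77 (95% interval 0.34 to 1.20) and for Bax 0.09 (95% interval -0.14 to 0.33).

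For most of the p53 pathway genes the iNSC sets were close to each other. Called on its own, each set was lower than MEF in the same 17 genes (11.3% of all genes for iNSC1, 10.6% for iNSC2). Against NSC, iNSC1 was lower in 16 and iNSC2 in 15 (3.86% and 3.57% of all genes), and all 15 are among the 16. Plk2 was the gene called for iNSC1 alone. Between iNSC1 and iNSC2, 1 of 38 genes was called, beside 0.152% of all genes. It was Plk2, lower in iNSC1 (-1.03 ± 0.11, adjusted p = 4.21e-05), with readings that do not overlap as given above. The value was just short of 2-fold without iNSC1 replicate 1 (-0.99) or 2 (-0.99) and without iNSC2 replicate 1 (-0.99) or 2 (-0.98). Mdm4 was uneven within iNSC2, with replicate 3 reading 3.85 beside 4.64 and 4.43.

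Further targets of p53 from another list, also chosen with earlier results of these data known, gave a mixed picture. Of 29 measured, 17 were lower and 4 higher in iNSC than in MEF, with a median of -1.23, beside 10.9% lower and 8.21% higher of all genes. Against NSC, 10 were lower and 1 higher, with a median of -0.32, beside 3.65% and 2.91% of all genes. Cdkn1a, the cyclin-dependent kinase inhibitor p21 and best known p53 target of growth arrest, read 7.66, 7.94 and 7.83 in iNSC1, 8.01, 7.81 and 7.79 in iNSC2, against 10.12, 10.11 and 10.12 in NSC and 10.93, 10.82 and 10.94 in MEF. It was 8.31-fold lower in iNSC than in MEF and 4.85-fold lower than in NSC, and the 3 levels do not overlap. Other falls against both groups were those of Ak1, an adenylate kinase (-3.98 ± 0.063 from MEF, -2.89 ± 0.063 from NSC), and Tap1, which carries peptides for antigen presentation (-2.83 ± 0.16 from MEF, -2.95 ± 0.16 from NSC). Psrc1, a spindle protein, fell against NSC (-2.25 ± 0.059) and differed by -0.81 ± 0.059 from MEF. Thbs1, a matrix glycoprotein, was lower in iNSC than in MEF (-8.49 ± 0.087) but differed by -0.12 ± 0.087 from NSC. Against the trend, Sfn, the 14-3-3 sigma protein that is also a marker of epithelium, read 10.16 to 10.43 in iNSC, 5.65 to 6.05 in NSC and 5.64 to 5.97 in MEF, and was 21.6-fold higher than in MEF. The other genes higher in iNSC than in MEF were Pcna, the sliding clamp of replication (1.42 ± 0.13), Epha2, an ephrin receptor (1.17 ± 0.072), and Prkab1, a subunit of AMP-activated kinase (1.11 ± 0.081).

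Of 22 upstream kinases, cofactors and other regulators measured, 1 was higher and 1 lower in iNSC than in MEF, beside 8.21% and 10.9% of all genes. Without the 2-fold minimum, 13 were higher and 3 lower than in MEF, beside 5003 and 4555 of all 17103 genes. Against NSC, 2 of 22 were lower and 0 higher, beside 3.65% and 2.91% of all genes. With no minimum, 6 were lower and 4 higher than in NSC, beside 3305 and 2810 of all 17103 genes. The checkpoint kinase gene Chek1 was higher in iNSC than in MEF (1.58 ± 0.17) and in NSC than in MEF (1.84 ± 0.20), and Rchy1, a ubiquitin ligase of p53, was lower (-1.89 ± 0.15 and -1.29 ± 0.17). Hipk2, a kinase that activates p53, and Trp53bp1, a damage response scaffold, were lower in iNSC than in NSC (-1.33 ± 0.073 and -1.13 ± 0.11). Atm and Chek2, kinases of the damage signal, differed by 0.42 ± 0.10 and 0.78 ± 0.11 from MEF. Ppm1d, a phosphatase that dampens p53, was higher in NSC than in MEF at 1.00 ± 0.10, a call that ended without NSC replicate 1 (0.92), without MEF replicate 5 (0.94), with median centring (0.98) and under that block (0.97). Cdkn2a, whose Arf product restrains Mdm2, ranged over 8.16 to 8.56 in the iNSC arrays, 7.63 to 7.85 in the NSC arrays and 8.70 to 8.97 in the MEF arrays. It was lower in NSC than in MEF (-1.09 ± 0.10), a call lost under that block (-0.999), and its probe set does not separate Arf from the p16 transcript.

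Lists of proliferation, macrophage and fibroblast genes were read on the same arrays. Proliferation genes, 15 measured, were higher than in MEF in all 15 for iNSC and for NSC. Between iNSC and NSC, 0 of them were called in limma. Without the 2-fold minimum, 6 of them were higher and 4 lower in iNSC than in NSC, beside 2810 and 3305 of all 17103 genes. The mean log2 reading of the 15 genes per array ranged over 7.34 to 7.46 in iNSC1, 7.12 to 7.52 in iNSC2, 7.29 to 7.45 in NSC and 5.12 to 5.18 in MEF. Cdk1, 1 of these genes, named after its values were seen, lost its NSC minus MEF call without NSC replicate 1 (0.98) or MEF replicate 5 (0.95), with median centring (0.995) and with the block (0.96). Macrophage markers were lower than in MEF in 7 of 10 for iNSC and for NSC, and 1 of 10, Cd68, was lower in iNSC than in NSC (-1.07 ± 0.087). Their mean reading ranged over 3.73 to 3.78 in iNSC1, 3.59 to 3.65 in iNSC2, 3.63 to 3.76 in NSC and 6.21 to 6.55 in MEF, and Lyz2, lysozyme of myeloid cells, was near the bottom of the scale in all iNSC and NSC arrays (2.19 to 2.65), against 8.02 to 9.34 in MEF. Fibroblast markers ranged over means of 4.71 to 4.78 in iNSC1, 4.80 to 4.87 in iNSC2, 4.10 to 4.20 in NSC and 8.90 to 9.20 in MEF, so that iNSC and NSC did not overlap. Of 12 fibroblast markers, 11 were lower and 1 higher in iNSC than in MEF, all 12 were lower in NSC than in MEF, and Dcn (4.74 ± 0.14) and Bgn (2.27 ± 0.086) were higher in iNSC than in NSC. Bgn differed between the iNSC sets, with means of 5.20 in iNSC1 and 6.35 in iNSC2. The part of these markers in the differences of the p53 pathway genes was not tested.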

How the data were processed

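Deposited log2 values of 28815 probe sets on 12 arrays were used as given. Per the submitters' processing notes they were made by RMA in Affymetrix Power Tools, a method of background correction, quantile normalisation and probe summary; versions, build and annotation were not given in the sources used here. Per the file headers, a second deposited table gives gene symbols for 21774 probe sets, log2 ratios and Benjamini-Hochberg adjusted p-values whose test is not stated. Its 12 per-array columns were not used. Of its probe sets, 18403 carried 1 symbol, and 17520 of these were updated by Entrez identifier (RefSeq, GRCm38.p6); the probe set with the highest mean stood for a gene, leaving 17103 genes with no filter on low values.

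limma 3.58.1 in R 4.3.3 fitted 1 mean per group and 1 spread for all 12 arrays, letting the prior variance follow mean level (8 residual and 8.7 prior degrees of freedom), two-sided; iNSC is the mean of iNSC1 and iNSC2. The fit was tested on simulated data for iNSC minus MEF over 17103 genes: 50 of 50 genes were recovered at each true log2 change of 1.5, 2, 3 and -2, with 1 false call. These changes all exceed the 2-fold minimum, and every other gene had 1 mean in all groups. The simulation therefore checks that the code runs as meant and cannot speak to calls near that minimum. All members may be named; other lists are named by their largest changes and a fixed set. Members and lists were chosen with earlier results of these data known. Alternatives were no fold minimum, a minimum of 6 for the highest group mean, mean of probe sets, median centring, no trend, only the groups compared, replicate block, each array left out, and the authors' own calls.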

Additional observations from a re-analysis of the deposited data

Results flagged for a closer look

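Plk2 differed from MEF by unlike amounts in the iNSC sets: the test of that difference, iNSC1 minus iNSC2, gave -1.03 on the log2 scale (adjusted p = 4.21e-05 over 17103 genes), with all 3 iNSC1 arrays below all 3 iNSC2 arrays. It was the only member called between these sets, and its size sits at the 2-fold limit. Groups of 3 arrays are too small for a test of single outlying arrays.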

How the results depend on the processing

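Of 2266 values for the members under an alternative, 2206 kept their side of the threshold, 50 passed it where they had not before and 10 no longer passed. Among values called in the main fit, 0 reversed direction. The direction of values that were not called was not compared. Leaving out 1 array gave 16 to 18 genes lower in iNSC than in MEF, 15 to 17 lower than in NSC, 7 lower and 1 to 2 higher in NSC than in MEF, 0 to 1 between the iNSC sets and 11 to 13 lower in iNSC than in both other groups; genes higher in iNSC stayed at 0. Without the 2-fold minimum, which admits smaller differences by construction, the counts were 23 lower and 5 higher for iNSC minus MEF, 26 and 3 for iNSC minus NSC, 14 and 15 for NSC minus MEF, 2 and 0 for iNSC1 minus iNSC2, and 20 lower in iNSC than in both. Over all genes that setting gave 4555 lower and 5003 higher (1857 and 1405 with the minimum) for iNSC minus MEF, 3305 and 2810 (624 and 497) for iNSC minus NSC, 4091 and 4780 (1703 and 1492) for NSC minus MEF, and 266 and 127 (11 and 15) for iNSC1 minus iNSC2. The genes higher in NSC than in MEF came to 1 with a highest group mean of at least 6, which left Sesn1 untested, and to 1 with the replicate block. That minimum kept 7488 genes, with 15 members lower than MEF and 12 lower than NSC, beside 1406 and 465 of those 7488 genes. Members under the minimum were not tested, so these counts are not out of 38 and the share of all genes called differs from the main one. The authors' deposited table gave 17 lower than MEF, 16 lower than NSC, and 7 lower and 2 higher in NSC than in MEF; its ratio of iNSC1 to iNSC2 is rounded to whole numbers, so no count was taken from it. Same-numbered arrays of different groups correlated in their deviations from group means at -0.177 to 0.281 (median 0.085, 6 of 15 pairs over 0.1), and differently numbered ones at a median of -0.045 (9 of 39 over 0.1). Not every same-numbered pair was over 0.1, so the numbers are not taken to pair the samples, although 7 of 11 arrays correlated best with a partner of their own number, a hint from the data and not the design; the replicate block gave 18 lower than MEF, adding Dram1, and 16 lower than NSC. Replicate number 5 occurs on 1 array only, so the block fits that MEF array exactly and takes it out of the MEF mean. The block and the run without MEF replicate 5 are thus not separate checks. The cause of the changes between settings was not tested. Readings near the bottom of the scale, as for Fas, Polk, Ddb2, Rrm2b and Trp73, can be background. The iNSC readings of Eda2r, Trp53inp1, Ddit4l and Gdf15 (means of 2.71, 4.36, 4.15 and 4.12) were as low. The size of their falls is therefore uncertain.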

Other observations

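Within groups, the members did not rank their arrays evenly. Among the 17 genes lower in iNSC than in MEF, iNSC2 replicate 3 had the lowest reading of its set in 13 (76.5%), beside 40.7% of all genes, and iNSC2 replicate 1 the highest in 13 (76.5%), beside 39.5%. In the NSC arrays, replicate 3 read lowest in 10 of these 17 (58.8%), beside 35.4% of all genes. In the MEF arrays, replicate 5 read lowest in 9 of 17 (52.9%), beside 38.6%. For Trp53inp1 it read 6.92, beside 7.77 and 7.81 on the other MEF arrays, for Ccng1 8.78 beside 9.81 and 9.80, and for Eda2r 4.92 beside 5.78 and 5.67. These counts were made after the values were seen and carry no test.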
